A study of Mus musculus with 6 samples.

Results

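The genes described here are 10 that load, form and switch on the MCM helicase: the loading factors Cdc6 and Cdt1, the ring subunits Mcm2, Mcm3, Mcm4, Mcm5, Mcm6 and Mcm7, and Cdc45 and Gins1, which join the ring when it is activated. They were chosen by name, and all 10 were among the 18905 genes tested of the 42450 listed. Total RNA was sequenced from male mouse embryonic stem cells in 2 groups of 3 libraries. WT cells were the parental line E14tg2a.4, and Srrm2+/- cells were the gene-trap line CG0630 made from it, in which a cassette in exon 1 truncates 1 allele of Srrm2. Srrm2 encodes a scaffold protein of nuclear speckles that takes part in splicing. Both lines were kept on gelatin in GMEM with the self-renewal factor LIF and moved to serum-free ESGRO medium with LIF before collection, for a time on which the labels and the methods differ. The heterozygous line is a single gene-trap clone, and its replicates were frozen at lower passage numbers than those of WT cells, so genotype, clone and passage cannot be told apart in this design.

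A replication origin is licensed in G1, when the origin recognition complex and Cdc6 receive rings of Mcm2 to Mcm7 carried by Cdt1 and close them around DNA as head-to-head pairs. In S phase the Dbf4-dependent kinase Cdc7 and cyclin-dependent kinases bring Cdc45 and the GINS complex to the ring, and the resulting CMG helicase unwinds the fork. Embryonic stem cells divide with a short G1 phase and are known for high levels of MCM proteins and dense licensing, and many of these genes are classical targets of E2F transcription factors.

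The libraries held 54151532 to 69933465 estimated counts, and values are given as CPM, counts set to a common library size after TMM normalization, which allows for library composition. Srrm2 itself stood at 91.2, 98.3 and 97.7 CPM in WT cells and at 62.3, 56.2 and 59.6 CPM in Srrm2+/- cells, a log2 fold change of -0.69 (SE 0.05, adjusted p = 2.38e-05, edgeR quasi-likelihood test). Embryonic stem cell markers summed to between 5173 and 5351 CPM in WT libraries and to between 4486 and 4609 CPM in Srrm2+/- libraries, and 6 of the 9 passed the test as lower and 1 as higher. Sums of trophectoderm markers lay between 18.6 and 21.9 CPM against 240 to 267 CPM, nearly all of it Krt8 and Krt18, with 3 of 5 tested genes higher and Cdx2 not tested. Fibroblast markers summed to between 1.16 and 1.37 CPM in WT cells and to between 5.27 and 8.47 CPM in Srrm2+/- cells, with 3 of 3 tested genes higher and the defining genes Lum and Dcn not tested. Sums of mesoderm markers lay between 1.40 and 2.20 CPM against 3.96 to 4.64 CPM (1 of 3 tested genes higher, Mesp1 not tested), those of neural markers between 74.7 and 80.6 CPM against 50.1 to 53.2 CPM (2 of 3 lower, Neurog2 not tested), and those of primitive endoderm markers between 2.32 and 2.70 CPM against 2.54 to 3.57 CPM (1 of 5 higher, Sox17 not tested). Over all tested genes 25.3% passed the test, 13.6% as higher and 11.7% as lower. Counts of 1 of 3 or 1 of 5 are near that share. The part of these markers in the results on licensing genes was not tested.

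Cdc45, Mcm6 and Gins1 fell in Srrm2+/- cells, and the other 7 genes did not pass the test in either direction. The fall was to 79.1% of the WT mean for Cdc45, to 87.2% for Mcm6 and to 89.1% for Gins1. A gene was called at a Benjamini-Hochberg adjusted p under 0.05 in edgeR, over all tested genes. The 3 called genes are 30% of the 10, beside 25.3% of all tested genes called in either direction, 13.6% called higher and 11.7% called lower. Among the 4105 tested genes at least as abundant as the least abundant of the 10, 34.0% were called and 19.7% were called lower. The share called was thus near the background, and nothing particular to these genes is read from it. The median log2 fold change of the 10 was -0.06, beside -0.0025 over all tested genes and -0.018 over those 4105 genes. The size of a typical change, the median of the absolute log2 fold change, was 0.19 over all tested genes. Where a value is described as a change, the p-value measures the spread between thawed batches of each line, and not between independently derived clones.

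**Figure D1:**
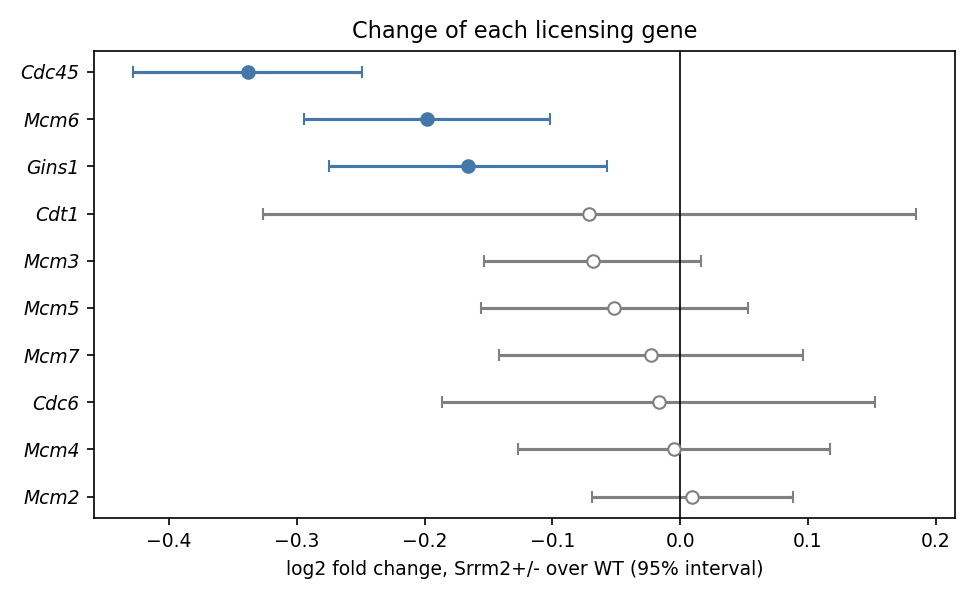
Log2 fold change of each of the 10 licensing genes, Srrm2+/- over WT (x axis), with its 95% interval from the edgeR fit, ordered by size. Filled blue points passed the test as lower and open grey points did not pass: Cdc45, Mcm6 and Gins1 have intervals wholly below 0, and Cdt1 has the widest interval, from -0.33 to 0.18.

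Sequence near the start sites was looked at first, because many of these genes are known as E2F targets. RefSeq (GRCm38.p6) windows of 300 bases, from 250 before to 50 after the start, were at hand for 8 of the 10 genes, and Mcm4 and Gins1 had none. The words TTTCCCGC, TTTGGCGC, TTTCGCGC and TTTGCCGC were searched on both strands, and sites that overlapped were merged. At least 1 word lay in the windows of 6 of these 8 genes, Mcm3, Mcm5, Mcm6, Mcm7, Cdc6 and Cdt1. Counted by gene, 539 of the 12290 tested genes with a window had such a word, and counted by window, 2.26% of all 32851 windows did. The words are not particular to the 10 genes. Among genes with a window they lay in 4 of 9 for origin recognition and licensing control and 8 of 24 for the replication fork. For E2F and pocket factors it was 5 of 10, for origin firing 2 of 8 and for other MCM family genes 1 of 2. For G2 and mitosis it was 1 of 18 and for nucleotide supply 0 of 6. The sites are shown so that the genes that fell can be set beside those that did not. Each is 30 bases in the direction of transcription, with the word or the merged words in capitals.
Mcm6, chr1:128359795-128359824, minus strand: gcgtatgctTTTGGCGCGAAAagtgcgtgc
Mcm6, chr1:128359734-128359763, minus strand: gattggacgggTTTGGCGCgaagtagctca
Mcm5, chr8:75109347-75109376, plus strand: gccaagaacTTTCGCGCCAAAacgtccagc
Mcm3, chr1:20820275-20820304, minus strand: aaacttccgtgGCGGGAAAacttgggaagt
Mcm3, chr1:20820263-20820292, minus strand: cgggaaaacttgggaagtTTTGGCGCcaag
Mcm7, chr5:138172030-138172059, minus strand: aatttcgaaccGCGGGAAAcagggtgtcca
Mcm7, chr5:138171849-138171878, minus strand: gggtgacgacgTTTCGCGCcaatttcggtt
Cdc6, chr11:98908002-98908031, plus strand: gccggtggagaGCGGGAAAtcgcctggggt
Cdt1, chr8:122568035-122568064, plus strand: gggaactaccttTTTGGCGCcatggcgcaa

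The first Mcm6 site and the Mcm5 site are the 2 in which TTTGGCGC on one strand overlaps TTTCGCGC on the other. Mcm6 fell and Mcm5 did not pass the test, although both carry the merged word. No E2F word was found in the windows of Mcm2 and Cdc45, so of the 3 genes that fell 1 has such a word, 1 has none and Gins1 has no window. The word CCAAT, bound by NF-Y, lay in the windows of 6 genes, Cdc45, Mcm2, Mcm3, Mcm5, Mcm6 and Mcm7, beside 37.4% of all windows. TTTGAA, the core of the cell cycle homology region known from G2 and mitosis genes, lay in those of Cdc45 and Mcm2, beside 17.9% of all windows. Across all genes, 539 tested genes had an E2F word in a window, of which 16.0% were called higher and 13.0% lower, with a median log2 fold change of -0.0062. For the 12290 tested genes with any window these were 15.6%, 12.5% and 0.0070. A match of letters is a description of the window and not evidence that a factor binds there.

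The loading factors did not differ beyond their spread. Cdc6, the ATPase that joins the origin recognition complex to recruit the ring (chr11:98907801-98923940), was at 55.5, 60.1 and 53.7 CPM in WT cells and at 49.6, 60.3 and 57.5 CPM in Srrm2+/- cells. The WT range lay within that of the Srrm2+/- libraries, and the log2 fold change was -0.02 (SE 0.07, adjusted p = 0.900). Its 95% interval ran from -12.1% to 11.2%. Cdt1, the chaperone that carries the ring to the origin (chr8:122568015-122573554), was at 58.8, 56.1 and 64.0 CPM in WT cells and at 67.8, 47.7 and 54.7 CPM in Srrm2+/- cells. The highest and the lowest of these libraries were both Srrm2+/-, replicates 1 and 2. Cdt1 therefore had the widest spread of the 10, with a coefficient of variation of 17.9% in Srrm2+/- cells and 6.68% in WT cells. Its log2 fold change of -0.07 (SE 0.11, adjusted p = 0.704) leaves room for changes between -20.2% and 13.6%.

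Of the 6 ring subunits 1 fell. Mcm6, which sits between Mcm2 and Mcm4 in the ring (chr1:128331590-128359664), was at 436, 404 and 424 CPM in WT cells and at 377, 360 and 364 CPM in Srrm2+/- cells. Every Srrm2+/- library lay below every WT library. The log2 fold change was -0.20 (SE 0.04, adjusted p = 0.00876, edgeR), a change of -12.8% with a 95% interval from -18.4% to -6.82%. In these bulk libraries, fewer cells in the phases that express a gene and less RNA per cell cannot be told apart.

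Mcm3, which together with Mcm5 and Mcm7 makes up the other side of the ring, was the only further subunit whose groups did not overlap (chr1:20802968-20820312). It stood at 373, 364 and 372 CPM in WT cells and at 352, 344 and 362 CPM in Srrm2+/- cells. The gap between the nearest libraries was small, and with a log2 fold change of -0.07 (SE 0.04, adjusted p = 0.229) Mcm3 did not pass the test. With Cdc45, Mcm6 and Gins1 this makes 4 of the 10 genes with every Srrm2+/- library below every WT library, beside 20% of all tested genes, and none with every library above, beside 21.4%. In either direction the groups did not overlap for 41.4% of all tested genes, so 4 of 10 is near the background.

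Mcm2, the subunit that holds histones at the fork and meets Mcm5 at the gate of the ring (chr6:88883474-88898780), had the most even level of all 10. It was at 409, 414 and 418 CPM in WT cells and at 417, 414 and 418 CPM in Srrm2+/- cells. These libraries spread by a coefficient of variation of 1.06% and 0.501%, and the log2 fold change of 0.01 (SE 0.03, adjusted p = 0.875) had a 95% interval of -4.68% to 6.32%. A fall as large as that of Mcm6 lies outside this interval, but the difference between the 2 genes was not tested.

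Mcm4, which belongs to the catalytic core with Mcm6 and Mcm7 (chr16:15623897-15637400), was at 184, 201 and 207 CPM in WT cells and at 201, 187 and 202 CPM in Srrm2+/- cells. The lowest library was WT replicate 1 and the groups overlapped, with a log2 fold change of -0.0049 (SE 0.05, adjusted p = 0.962). Mcm7 (chr5:138164583-138172422) was at 382, 404 and 406 CPM in WT cells and at 364, 401 and 409 CPM in Srrm2+/- cells. Both groups held 1 low and 2 higher libraries, and the log2 fold change was -0.02 (SE 0.05, adjusted p = 0.803). Mcm5, the other gate subunit (chr8:75109569-75128439), was at 84.7, 90.9 and 86.9 CPM in WT cells and at 81.4, 88.5 and 83.5 CPM in Srrm2+/- cells. The groups overlapped at a log2 fold change of -0.05 (SE 0.05, adjusted p = 0.474).

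**Figure D2:**
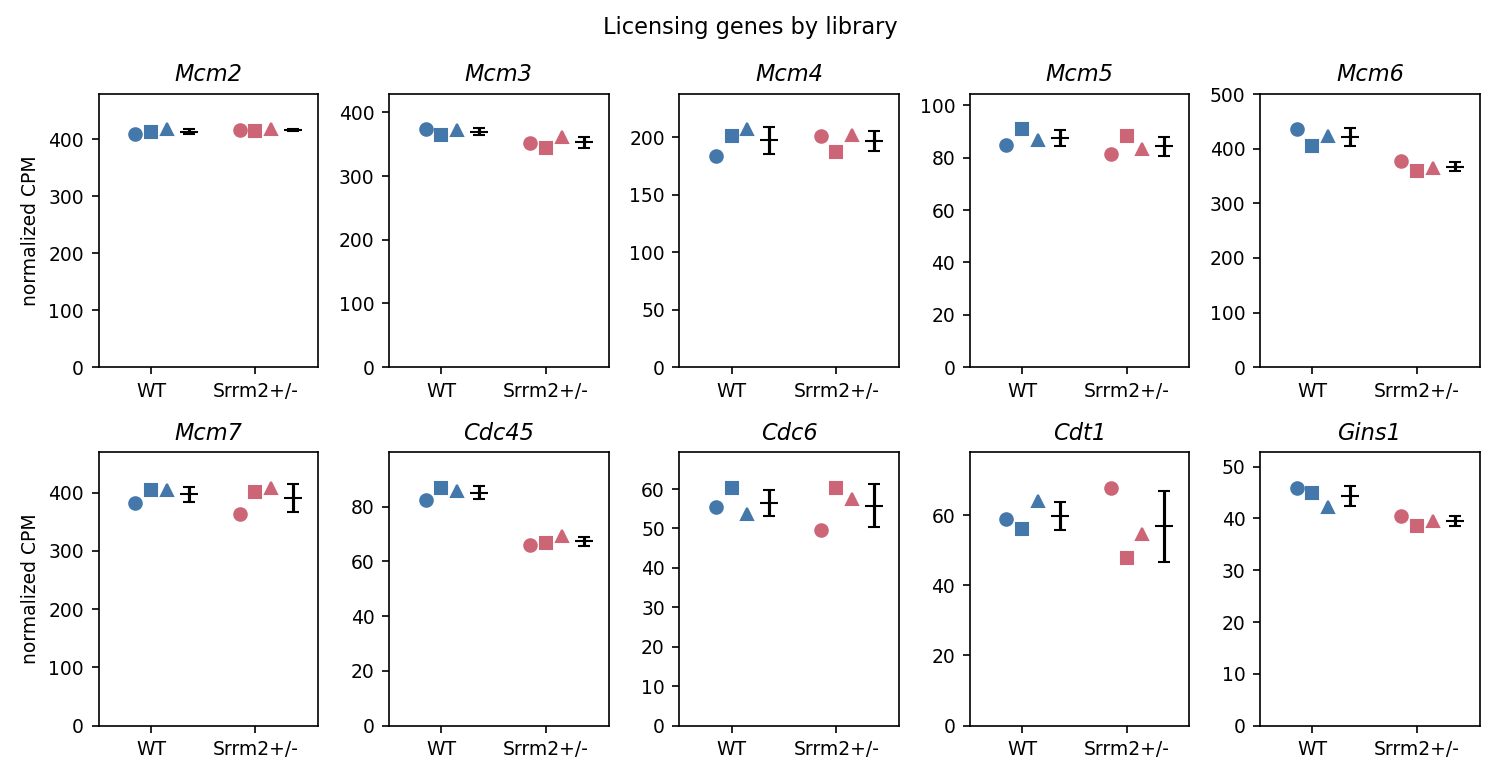
Normalized CPM (y axis, from 0) of each of the 10 licensing genes in WT (blue) and Srrm2+/- (red) libraries, with circles, squares and triangles for replicates 1, 2 and 3 and black bars for the mean ± SD. The red points lie wholly below the blue ones for Mcm3, Mcm6, Cdc45 and Gins1 and overlap them for the other 6, and Cdt1 has the widest spread.

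The ring holds 1 copy of each subunit, so their levels were also set on a scale per length, CPM per kb of the transcript with the longest coding sequence. In WT cells the order was Mcm6 at 145 ± 5.43, Mcm7 at 134 ± 4.47, Mcm2 at 123 ± 1.30, Mcm3 at 122 ± 1.66, Mcm4 at 55.0 ± 3.31 and Mcm5 at 25.9 ± 0.933 CPM per kb (SD, n = 3). Mcm2 and Mcm3 overlapped in range, and the other neighbours in this order did not. In Srrm2+/- cells the order was Mcm7 at 132 ± 8.13, Mcm6 at 126 ± 3.06, Mcm2 at 124 ± 0.619, Mcm3 at 116 ± 2.82, Mcm4 at 54.8 ± 2.38 and Mcm5 at 25.0 ± 1.08 CPM per kb (SD, n = 3). Here the ranges of Mcm7, Mcm6 and Mcm2 overlapped, so that Mcm6 no longer stood apart at the top. The order at the top rests on the length used: per kb of all exons merged, Mcm3 led in both groups at 98.6 and 94.0 CPM per kb.

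Summed over the 6 subunits, the level was 604 ± 7.03 CPM per kb in WT cells and 578 ± 8.48 CPM per kb in Srrm2+/- cells (SD, n = 3), or 95.6%. The ratio of the highest to the lowest subunit was 5.60 ± 0.408 and 5.38 ± 0.207. Mcm6 made up 25.0, 23.1 and 23.8% of the sum in WT libraries and 22.6, 21.6 and 21.3% in Srrm2+/- libraries. Its 2 sets of shares did not overlap, and neither did those of Mcm2, which were 20.2, 20.4 and 20.2% against 21.6, 21.4 and 21.1%. The shares of a sum move against each other, so a rise in the share of Mcm2 is no rise in its level. The other 4 subunits had overlapping shares.

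**Figure D3:**
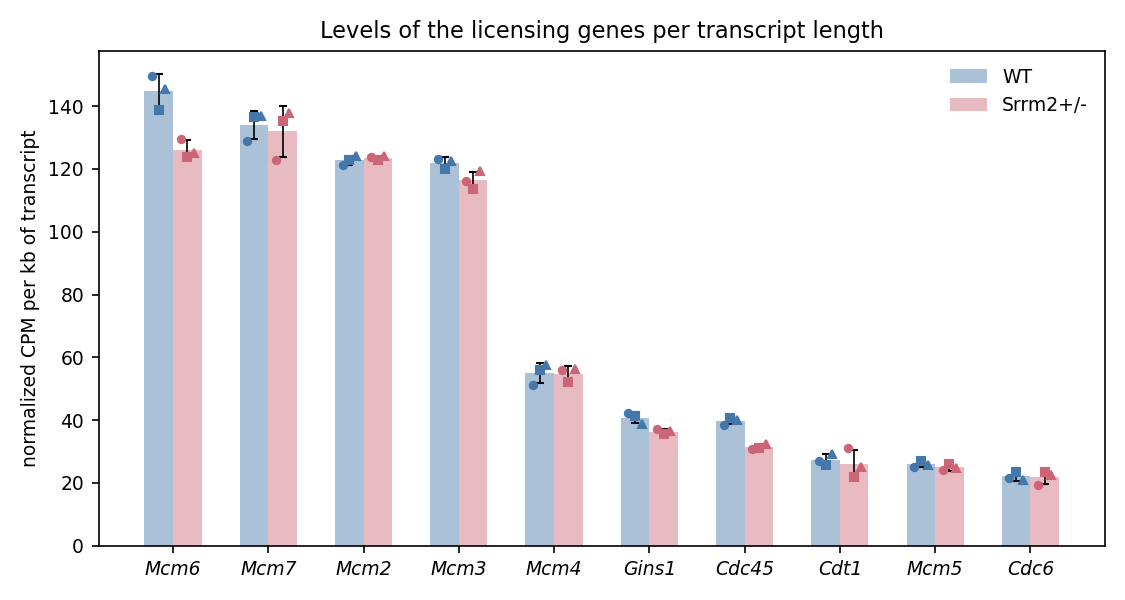
Normalized CPM per kb of transcript (y axis, from 0) of the 10 licensing genes in WT (blue) and Srrm2+/- (red) cells, ordered by the WT mean, with bars for means, black lines for ± SD and points for the 3 libraries of a group. Mcm6, Mcm7, Mcm2 and Mcm3 stand between 116 and 145 on average in both groups, well above Mcm4 at about 55.0, and the remaining 5 genes lie lower.

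Both activators fell, Gins1 by a margin that single libraries decided. Cdc45, the subunit that marks an active helicase (chr16:18780447-18811987), was at 82.5, 86.9 and 85.9 CPM in WT cells and at 66.1, 66.7 and 69.2 CPM in Srrm2+/- cells. The groups were far apart relative to their spread, with coefficients of variation of 2.70% and 2.41%. The log2 fold change was -0.34 (SE 0.04, adjusted p = 0.000351, edgeR), a change of -20.9% with a 95% interval from -25.7% to -15.8%.

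Gins1, also known as Psf1, is the subunit of the GINS complex that helps hold Cdc45 to the ring (chr2:150905400-150931280). It was at 45.9, 44.9 and 42.2 CPM in WT cells and at 40.4, 38.6 and 39.6 CPM in Srrm2+/- cells. The groups did not overlap, although WT replicate 3 came near Srrm2+/- replicate 1. The log2 fold change was -0.17 (SE 0.05, adjusted p = 0.0332), a change of -10.9% with a 95% interval from -17.3% to -3.88%. This call was lost without WT replicate 1 (adjusted p = 0.103), WT replicate 2 (0.0950), Srrm2+/- replicate 1 (0.0537), replicate 2 (0.109) or replicate 3 (0.0933), at log2 fold changes between -0.18 and -0.14, and under 2 other settings.

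Per kb of transcript, Gins1 at 40.8 ± 1.79 and Cdc45 at 39.7 ± 1.07 CPM per kb overlapped in WT cells (SD, n = 3). In Srrm2+/- cells Gins1, at 36.3 ± 0.843, lay above Cdc45, at 31.4 ± 0.756 CPM per kb, with no overlap. Cdt1 at 27.2 ± 1.82 and Cdc6 at 22.1 ± 1.30 CPM per kb were lower than both in WT cells, and stood at 25.9 ± 4.65 and 21.8 ± 2.17 CPM per kb in Srrm2+/- cells. In that group 1 Cdt1 library reached the range of Cdc45, and the ranges of Cdt1 and Mcm5 overlapped in both groups. These comparisons also rest on the length used. Per kb of all exons merged, Gins1 lay above Cdc45 on average in WT cells too, at 29.2 against 24.3 CPM per kb. In Srrm2+/- cells the values were 26.1 and 19.2 CPM per kb.

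The partners of these genes showed small differences, mostly below 0. Orc1, the origin recognition subunit that binds Cdc6, had 124 ± 4.41 CPM in WT cells and 117 ± 4.88 CPM in Srrm2+/- cells (SD, n = 3), a log2 fold change of -0.09 (SE 0.05, adjusted p = 0.204). Gmnn, which encodes geminin, the inhibitor of Cdt1, was at 63.5 ± 3.33 and 61.4 ± 1.56 CPM with a log2 fold change of -0.05 (SE 0.05, adjusted p = 0.518). Neither passed the test. Of the 10 genes of origin recognition and licensing control, 4 fell and none rose: Orc6 (log2 fold change -0.19, adjusted p = 0.0120), Orc3 (-0.17, 0.00720), Orc4 (-0.13, 0.0290) and the acetyltransferase Kat7 (-0.14, 0.0248). These are 40% of the list, beside 25.3% of all tested genes called and 11.7% called lower, or 34.0% and 19.7% of genes at least as abundant as Gins1. All 10 had a log2 fold change below 0. Their median was -0.11, beside -0.018 over the 4105 tested genes at least as abundant as Gins1. The share of all tested genes below 0 was not counted. Below 0 were also 11 of 12 genes of origin firing and 22 of 28 of the replication fork, but 6 of 22 of G2 and mitosis. Kat7 lost its call without WT replicate 2, WT replicate 3 or any 1 of the Srrm2+/- replicates (adjusted p = 0.0524 to 0.0935) and under the replicate block (0.0527), and Orc6 lost it without Srrm2+/- replicate 3 (0.0531). The count of 4 was 3 without WT replicate 1 or Srrm2+/- replicate 2. It was 2 without WT replicate 2, WT replicate 3 or Srrm2+/- replicate 1, and 1 without Srrm2+/- replicate 3. The losses of Kat7 and Orc6 do not account for all of these counts, and Orc4 was not followed singly under the alternatives.

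None of the 12 genes of origin firing was called by edgeR, DESeq2 or limma voom, beside 25.3% of all tested genes called by edgeR. Before adjustment 3 had a p under 0.05 in edgeR, all lower. Every called gene also has an unadjusted p under 0.05, so at least 25.3% of all tested genes do. Nothing is read from these 3. The kinase Cdc7, which phosphorylates the ring, had 59.8 ± 2.65 CPM in WT cells and 55.6 ± 2.36 CPM in Srrm2+/- cells (log2 fold change -0.10, SE 0.05, adjusted p = 0.164). Its activating subunit Dbf4 was at 381 ± 12.3 and 395 ± 3.09 CPM (0.05, SE 0.04, adjusted p = 0.391). The other GINS subunits lay on both sides of Gins1 in the size of the difference: the log2 fold change was -0.0093 for Gins2, -0.19 for Gins3 and -0.12 for Gins4, with adjusted p-values of 0.923, 0.0811 and 0.0590. Since these p-values miss the threshold, they do not show that Gins1 changed apart from its complex. Without WT replicate 1 the count for origin firing was 2, and without WT replicate 2 it was 1.

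Behind the helicase, 8 of 28 replication fork genes fell and none rose, with a median log2 fold change of -0.08. At 28.6% the share called was near the 25.3% of all tested genes and below the 34.0% of genes at least as abundant as Gins1; 11.7% and 19.7% of these were called lower. Those that moved furthest were Pole4 (-0.47, adjusted p = 0.000212), a small subunit of the leading-strand polymerase epsilon, Pola1 (-0.32, 0.000433), the catalytic subunit of polymerase alpha that primes synthesis, and Rfc1 (-0.28, 0.00580), of the clamp loader. Of the 7 genes of nucleotide supply 1 rose, Dut (0.32, adjusted p = 0.000862), which removes dUTP, and 1 fell, Rrm2 (-0.16, 0.0272), the S-phase subunit of ribonucleotide reductase. Rrm2 lost its call, and the count became 1, without WT replicate 2, WT replicate 3, Srrm2+/- replicate 1 or Srrm2+/- replicate 2. Among the 13 E2F and pocket factors, 5 fell and 1 rose, or 46.2% called beside 25.3% of all tested genes (11.7% lower, 13.6% higher). Rbl2, the pocket protein p130 that represses cell cycle genes in resting cells, fell by 1.01 on the log2 scale (adjusted p = 0.00138), the activator E2f2 by 0.65 (0.000560) and the dimer partner Tfdp2 by 0.28 (0.00255). Repressors and activators were thus both among the genes that fell.

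Of 22 genes of G2 and mitosis, 2 rose and none fell. These were Cdc20, which activates the anaphase-promoting complex, with a log2 fold change of 0.47 (adjusted p = 8.36e-05), and the mitotic kinase Plk1, with 0.45 (0.00435). The median of that list was 0.08, and its 9.09% called lay below the 25.3% of all tested genes. The count was 5, all higher, without Srrm2+/- replicate 1, whereas 1 gene was lower beside 4 higher with DESeq2, beside 2 with limma voom and beside 3 with short RNA, rRNA and mitochondrial genes removed. The share of cells in each phase was not measured in these libraries.

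**Figure D4:**
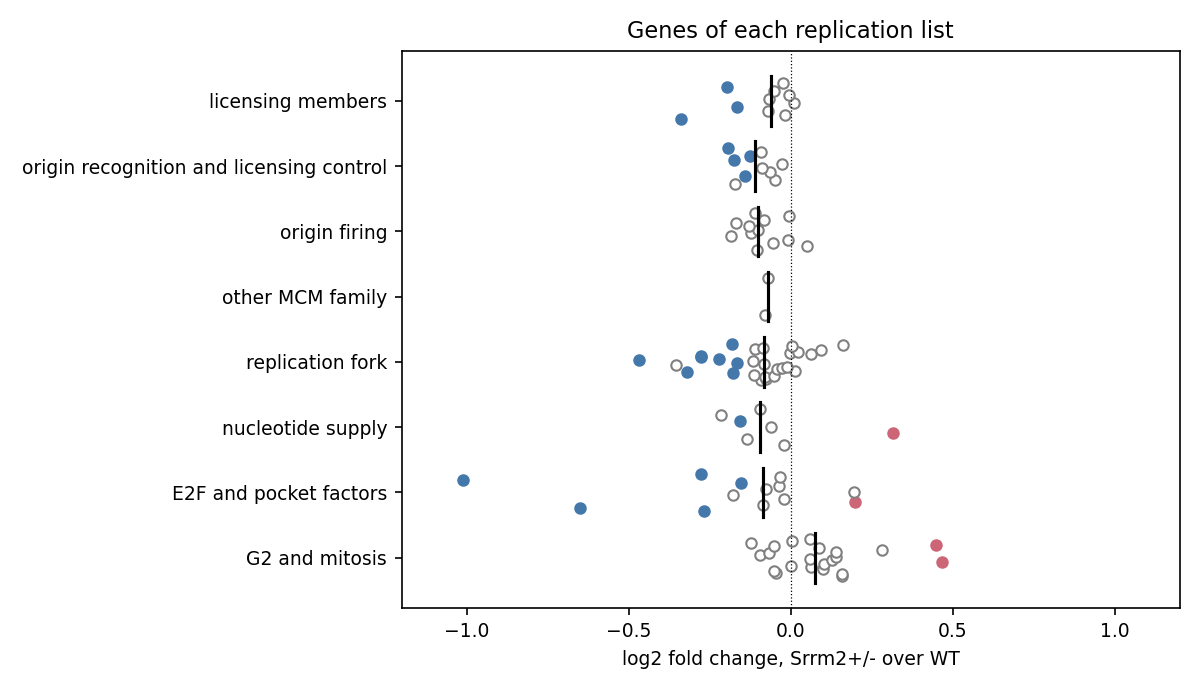
Log2 fold change, Srrm2+/- over WT (x axis), of the tested genes of 8 replication and cell cycle lists (y axis), with 1 point a gene and a black bar at each list's median. Blue points passed the test as lower, red points as higher and open grey points did not pass; Mcm9, at 6.08 in the list of other MCM family genes, lies off the axis and is not drawn, and the vertical spread within a list only separates the points.

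The remaining relatives of the ring subunits behaved unlike them in 1 case. Mcm8, which works with Mcm9 in homologous recombination, was at 45.7 ± 1.13 and 43.3 ± 1.99 CPM (SD, n = 3; log2 fold change -0.08, adjusted p = 0.283), and Mcmdc2, a meiotic relative, at 8.50 ± 0.181 and 8.09 ± 0.333 CPM (-0.07, 0.556). Mcm9 had 7, 0 and 0 estimated counts in WT libraries and 211, 194 and 188 in Srrm2+/- libraries, or 0.126, 0 and 0 against 3.05, 2.81 and 3.05 CPM. The WT libraries held almost none of it, and the fitted log2 fold change was 6.08 (SE 0.59, adjusted p = 0.000122). Without WT replicate 1 both other WT libraries are at 0, and against a floor of 3 counts per library Mcm9 was then at least 53.0-fold higher. That floor is 0.0560 CPM, and WT replicate 1, at 0.126 CPM, lies above it. The figure is therefore no lower bound once WT replicate 1 is counted. At its highest Mcm9 stayed far below every ring subunit in CPM.

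Several of the 10 genes share their start region or their reads with a neighbour, and these neighbours were chosen for description after their values were seen. Start sites on opposite strands lie 466 bases apart for Mcm4 and Prkdc, 420 for Mcm7 and Ap4m1, 208 for Cdc45 and Ufd1, and 659 for Gins1 and Abhd12. Prkdc fell (log2 fold change -0.18, adjusted p = 0.00961) while its neighbour Mcm4 was at -0.0049, and Ap4m1 fell (-0.25, 0.0454) while Mcm7 was at -0.02. Cops6, annotated over Mcm7 on the opposite strand, fell too (-0.19, 0.0283). Ufd1 fell (-0.19, 0.0289) beside Cdc45. Abhd12 was at -0.12 (adjusted p = 0.312) beside Gins1. Gm20388, annotated over Cdt1 on the same strand, had 12.3 ± 3.04 CPM in WT cells (SD, n = 3). In Srrm2+/- cells it had 5.18 ± 2.20 CPM (log2 fold change -1.24, adjusted p = 0.0133, edgeR). Of the 31-base words of Cdt1, 0.44% also occur in transcripts of other genes, 0.28% in Cyp7a1 and 0.16% in Gm35615. Gm20388 was not among the genes found to share them. How reads were divided between Gm20388 and Cdt1 was not tested.

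The reads of Mcm7 are the least its own. Of its 31-base words, 33.4% also occur in transcripts of other genes, 24.4% in the pseudogene Gm5487 and 5.77% in Ap4m1. Gm5487 is not among the 42450 genes listed, so no counts of it could be set beside those of Mcm7. The share was 8.80% for Cdc6, 6.82% for Cdc45, of which 5% in Ufd1, and 5.26% for Mcm4, and it was below 2% for the other 6 genes. The pseudogenes Gm9430 of Cdc6 and Gm9577 of Mcm4 held almost no counts, at 0 and at most 0.02 CPM on average, and adding them to their parent genes left the calls as they were. Mcm7 hosts Mir25, Mir93 and Mir106b in an intron, of which Mir25 and Mir93 were at 0 in all libraries.

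The mean profile of Mcm2 to Mcm7 over the 6 libraries served to find genes of a like pattern. Over 11950 genes, those with the highest Pearson r on the log2 scale, outside the lists, were 2700046G09Rik (0.998), Cyb5d1 (0.995), Pde4dip (0.994), Gabpb2 (0.993) and Mis12 (0.991), and 77 genes had an r over 0.95. Of these 5 genes only Gabpb2 passed the test between groups (log2 fold change -0.15, adjusted p = 0.0375). Every Srrm2+/- library was deeper than every WT library, so depth goes with group, and an r over 6 points is a description. Among the 10 genes themselves, r with that profile was 0.92 for Cdc45, 0.79 for Mcm3, 0.70 for Mcm6 and 0.60 for Gins1, and it fell to 0.01 for Mcm2, whose level hardly moved. Cdc45 is no part of the profile, whereas Mcm3 and Mcm6 are.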

How the data were processed

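Total RNA libraries (600 ng of RNA, TruSeq Stranded, paired reads of 75 bp) were analysed for 3 WT and 3 Srrm2+/- samples. Pseudo-alignment to the GENCODE M24 transcriptome (mm10) was run by the authors in kallisto 0.46.1, as their processing notes and methods give it, and the deposited table holds estimated counts summed by gene, with no scaling. These were rounded to whole numbers. The 31-base words that each gene shares with others were counted in GENCODE M21 transcripts.

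Genes were kept by filterByExpr (minimum count 10, minimum total 15), scaled by TMM and tested with edgeR 4.0.16 (R 4.3.3), glmQLFit and glmQLFTest, with group as the only term and Benjamini-Hochberg adjustment over 18905 genes. Of the identifiers 42156 matched a symbol, and 80 tested genes had none. Intervals are 95%. The scripts were run on simulated counts with 200 changed genes. The changes planted were larger than those of the 10 genes, so this run does not cover changes as small as theirs. Every pair of libraries differed by more than sampling noise. Totals of 54151532 to 69933465 set the precision, and intervals cover the spread between libraries.

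The alternatives were RLE and upper quartile scaling, short RNA, rRNA and mitochondrial genes removed, DESeq2 1.42.0, limma 3.58.1 voom, 2 filters, a replicate block and each library left out. The sums of Cdc6 and Mcm4 with their pseudogenes were added after seeing the data. The 10 genes and all lists were chosen with earlier results of these data known. Named are the 10 genes, Srrm2, Orc1, Gmnn, Cdc7, Dbf4 and Gins2 to Gins4 whatever their values, the 3 called genes of each other replication list with the largest change, and the 5 genes most like the mean profile of Mcm2 to Mcm7 at a mean log2 CPM of at least 1. Orc4, Mcm8, Mcmdc2 and the neighbours were named beside these after their values were seen.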

Additional observations from a re-analysis of the deposited data

How the results depend on the processing

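Mcm6 (log2 fold change -0.22 to -0.17) and Cdc45 (-0.36 to -0.32) stayed lower and past the threshold in 14 of 14 alternatives, and Gins1 in 7 of 14. Gins1 missed it with no filter beyond 1 count (-0.16, adjusted p = 0.0526), with the replicate block (-0.17, 0.0555) and without any single library but WT replicate 3 (-0.18 to -0.14, 0.0537 to 0.109; -0.20 without that one). The replicate numbers do not pair the samples, since deviations of same-numbered libraries correlated at -0.0285, -0.0337 and -0.0300. Under the block the count for origin recognition fell from 4 to 2. Mcm4, Mcm7, Cdc6 and Cdt1 changed sign under some settings and were never past the threshold: Mcm4 was at 0.00078 with no filter and 0.0017 with a filter of 1 CPM, and without 1 replicate Mcm4 ran from -0.052 to 0.033, Mcm7 from -0.054 to 0.028, Cdc6 from -0.075 to 0.063, Cdt1 from -0.22 to 0.042 and Gins2 from -0.054 to 0.018. Counts of called genes moved by over 1.5 times as follows. At an adjusted p under 0.01 they were 2779 for all genes (1574 higher, 1205 lower; 4781 at 0.05), 1 for origin recognition and 1 for nucleotide supply. With short RNA removed they were 1 for origin firing and 4 for G2 and mitosis (3 higher, 1 lower). DESeq2 gave 4 for nucleotide supply and 5 for G2 and mitosis (4 higher, 1 lower), and the filter of 1 CPM gave 5 for G2 and mitosis, all higher. Without 1 replicate they ran from 1 to 3 for origin recognition, 0 to 2 for origin firing, 1 to 2 for nucleotide supply and 2 to 5 for G2 and mitosis. The cause was not tested.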

Other observations

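Mcm9 lies on chromosome 10 (53536315 to 53630439) among other genes that rose, a stretch looked at after its values were seen. Of 7 tested genes within 500 kb, Mcm9 included, 4 passed the test and all 4 were higher in Srrm2+/- cells. Over all tested genes 25.3% were called and 13.6% were called higher. Mcm9, for which the stretch was chosen, is among both the 7 and the 4, so the count is no support for a regional rise. The others that passed were Slc35f1 (log2 fold change 2.07, adjusted p = 0.000156), Fam184a (0.52, 0.00870) and Man1a (0.39, 0.0394), while Cep85l, Pln and Asf1a did not. Asf1a, a histone chaperone gene that overlaps Mcm9 on the other strand and shares 17.7% of the 31-base words of Mcm9, had 26.0 ± 1.07 CPM in WT cells and 27.3 ± 0.430 CPM in Srrm2+/- cells (SD, n = 3; 0.07, 0.347). Over the whole table, 5 genes had fewer than 10 counts in every WT library and at least 100 in every Srrm2+/- library. Of these 4 were protein coding, Mcm9 was among them, and 0 genes showed the reverse. These counts were not scaled for depth. Srrm2+/- libraries held at least 61023103 estimated counts and WT libraries at most 58499961. Whether the rise of Mcm9 and these genes belongs to the genotype, the clone or the passage cannot be told apart in this design.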
